A study of Mus musculus with 2 samples.

Results

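The extraembryonic ectoderm (ExE) is the trophoblast tissue that sits above the epiblast in the early mouse egg cylinder. It holds the trophoblast stem cells, which are kept by FGF signals from the epiblast and by transcription factors such as CDX2, EOMES, ELF5, ESRRB, TFAP2C and SOX2. In return the ExE secretes BMP4 and the convertases FURIN and PACE4 (*Pcsk6*), which process NODAL. At its far end it passes into the ectoplacental cone, where ASCL2, HAND1 and other factors accompany the loss of stem cell genes and where spongiotrophoblast and giant cells arise.

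Here the ExE cells of single-cell RNA-seq libraries from E7 embryos were taken by their transcripts. A cell was counted as ExE when it had at least 5 unique molecular identifiers (UMIs, each standing for 1 captured transcript) of *Elf5*, *Wnt7b* and *Esrrb* together, at most 2 of *Pou5f1*, and fewer than 5 of *Foxf1* and *Tdo2* together. Visceral endoderm transcripts (*Ttr*, *Afp*, *Rbp4*, *Apoa1*, *Apoa4*) had to sum to under 200 counts per 1000000 UMIs (CPM). These rules found 177 of 791 control cells (22.4%, 95% interval 19.5 to 25.4) and 94 of 864 *Yap1* cKO cells (10.9%, 8.88 to 13.1), or 271 of 1655 cells. Intervals are exact 95% intervals of counting error and of nothing else.

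The control library was made from 4 pooled embryos and the *Yap1* cKO library from 3. The series gives the controls as Sox2cre:Yapflox/+ and the cKO embryos as Sox2cre:Yapflox/flox, so that both pools carried Cre and at least 1 floxed allele. The sample labels call the control WT, and the study's mouse methods also describe controls without Cre, so the control genotype is not settled by these sources. Sox2-Cre acts in the epiblast and its derivatives and is not meant to recombine the earlier extraembryonic lineages, and only males carried it. The study's authors, however, hold *Yap1* fl/fl embryos, whether control or cKO, to be probably heterozygous for *Yap1* outside the embryo proper. Their reason is that the sires can pass on an allele that is already deleted. They do not say this of flox/+ embryos, the genotype that the series gives for the control pool. With 1 library for each genotype there is no replicate and no test between genotypes, and differences between embryos, pools and libraries cannot be told apart from the genotype.

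The libraries held 1829 and 1897 barcodes, of which those with at least 5000 detected genes and at most 10% mitochondrial UMIs were kept. ExE cells had a median of 85015 (20420 to 317876) and 102230 (19211 to 293435) UMIs and of 8000 and 8433 genes. Summed over cells, this gave 16836809 control and 11563138 *Yap1* cKO UMIs. No ExE cell was called a doublet, and 2 barcodes occurred in both libraries, neither of them in an ExE cell. The labels call both pools female, but Y-linked UMIs were present. Among ExE cells, 106 of 177 control (59.9%) and 19 of 94 *Yap1* cKO cells (20.2%) were Y-bearing (at least 2 UMIs of 4 Y-linked genes and none of *Xist*), and 50 (28.2%) and 66 (70.2%) were Xist-bearing by the converse rule. Ratios between the libraries are therefore also given within Y-bearing and within Xist-bearing cells.

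The cells were chosen by the UMIs of the gate genes, so the values of these genes are a description. *Elf5*, whose product guards the trophoblast fate, was at 361 and 305 CPM in control and *Yap1* cKO ExE cells, *Wnt7b* at 93.4 and 82.1 CPM and the nuclear receptor gene *Esrrb* at 62.7 and 57.6 CPM. The 3 genes together had 16 to 124 UMIs in a control cell (median 45) and 6 to 112 in a *Yap1* cKO cell (median 54). The cells that failed at this step alone, 102 control and 82 *Yap1* cKO cells, had 0 to 1 UMI. No cell lay at the minimum of 5. The *Pou5f1* limit alone removed 2 and 5 cells (5 to 7 and 3 to 12 UMIs), the visceral endoderm limit 6 and 3 cells (3068 to 5110 and 337 to 2501 CPM), and the *Foxf1* and *Tdo2* limit 0 and 3 cells (6 to 16 UMIs).

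*Elf5* is shown by its promoter because it is the most abundant gene of the gate and because YAP1 acts through TEAD factors. The window of 250 bases before to 50 after a start site (RefSeq, GRCm38.p6, chr2:103411848-103412147, plus strand, the first of 2 windows of the gene) holds 1 match, in capitals, to the TEAD letters GGAATG or CATTCC, searched on both strands, starting 173 bases before the start.
Elf5: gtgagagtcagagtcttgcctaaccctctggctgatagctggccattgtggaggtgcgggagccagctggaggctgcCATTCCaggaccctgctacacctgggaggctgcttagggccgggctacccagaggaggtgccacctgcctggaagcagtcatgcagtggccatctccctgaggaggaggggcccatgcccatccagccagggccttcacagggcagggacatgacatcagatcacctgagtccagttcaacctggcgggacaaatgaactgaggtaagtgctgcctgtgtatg
These letters stood in 4817 of 32851 promoter windows (14.7%). They were in 1 of 10 listed stem factor genes, a list without *Elf5*, with a window and in 0 of 8 ectoplacental genes. A match is a description of the sequence and shows no binding.

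To see what the ExE cells carried beyond the gate, their CPM were set beside those of 2 other populations of the same libraries. One was 89 control and 125 *Yap1* cKO cells with at least 10 *Pou5f1* UMIs, the marker of the epiblast and its near derivatives, and the other 72 and 188 visceral endoderm cells (at least 5000 CPM of the 5 visceral endoderm genes). A gene was counted as higher in ExE when its CPM was at least 1.5 times that of both populations in both libraries. Of 9697 genes with 100 or more UMIs in the ExE cells of the 2 libraries together, 904 met this (9.32%). The minimum was set on ExE cells alone, for the lists as for all genes. Genes with few UMIs there, such as *Foxd3* and *Nodal*, were left out whatever their level elsewhere, which favours ExE in these counts. No test was made, because cells are not replicates.

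Of the 12 trophoblast stem factors with enough UMIs, 9 were higher in ExE than in both other populations, beside 9.32% of all genes. *Cdx2* (ENSMUSG00000029646, chr5:147300805-147307270, minus strand, GRCm38), the caudal factor that starts the trophoblast fate, was at 155 (149 to 161) CPM in control and 121 (114 to 127) CPM in *Yap1* cKO ExE cells. Its levels were 6.16 and 3.61 CPM in *Pou5f1*-positive and 27.7 and 27.6 CPM in visceral endoderm cells of the libraries in the same order. *Tfap2c*, an AP-2 factor of the trophoblast and the germline, was at 162 and 141 CPM in ExE, at 2.42 and 4.86 CPM in *Pou5f1*-positive and at 0.739 and 0.316 CPM in visceral endoderm cells. *Zfp42* (REX1), best known as a marker of naive pluripotency, was at 179 and 154 CPM in ExE and at only 1.43 and 2.31 CPM in *Pou5f1*-positive cells. *Tead4*, the TEAD factor needed to set up trophectoderm, was at 65.9 and 54.7 CPM, *Klf5* at 84.8 and 69.3 CPM and the GATA factor gene *Gata3* at 23.6 and 26.1 CPM. *Ets2*, *Satb1* and *Id2* completed the 9. In single cells the lowest, median and highest level of *Cdx2* was 11.7, 136 and 467 CPM in control and 0, 122 and 409 CPM in *Yap1* cKO ExE cells. *Tfap2c* had 29.9, 154 and 647 and 35.7, 134 and 382 CPM. The ranges of the libraries overlapped over most of their length for both genes.

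The other 3 stem factors were shared with the embryo. *Eomes*, the T-box factor of trophoblast stem cells and of the primitive streak, was at 182 and 169.8 CPM in ExE and at 120.1 and 158 CPM in *Pou5f1*-positive cells. *Sox2* was at 122 and 122 CPM in ExE and 91.7 and 74.1 CPM in *Pou5f1*-positive cells, and near 0 in visceral endoderm (0.185 and 0.506 CPM). *Sall4* was lower in ExE (111 and 100.5 CPM) than in *Pou5f1*-positive cells (248 and 225 CPM). *Foxd3*, which trophoblast stem cells need, had no UMI in any ExE cell, which allows up to 3 UMIs in 16836809 and in 11563138, while *Pou5f1*-positive cells held 54.7 and 30.1 CPM. *Tfap2a* had 23 and 24 UMIs, too few to be counted.

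Thinned to 41000 UMIs a cell, which kept 168 control and 89 *Yap1* cKO ExE cells, *Cdx2* was found in 99.4% (96.7 to 100) and 97.8% (92.1 to 99.7) of cells. The shares for *Eomes* were 98.8% and 96.6%, for *Tfap2c* 100% and 98.9% and for *Zfp42* 100% and 97.8%. Of the 14 listed stem factors, 10 had a UMI in at least 80% of these cells in both libraries. *Ets2* had one in 66.1% and 62.9% and *Gata3* in 60.7% and 57.3% of cells, and the other 2 were *Tfap2a* (7.14% and 6.74%) and *Foxd3*, with none. In *Pou5f1*-positive cells thinned to the same depth, *Cdx2* had a UMI in 7.95% and 11.2% and *Tfap2c* in 7.95% and 14.4% of cells. *Cdx2* also had a UMI in 53.1% and 59.4% of visceral endoderm cells, where *Tfap2c* had one in 3.12% and 1.82%. The 2 genes thus did not share 1 background level in the visceral endoderm.

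Genes of the ExE surface and germline type were also high, with 8 of 11 above both other populations, beside 9.32% of all genes. The reproductive homeobox genes of the X chromosome were *Rhox5* at 2144 and 2622 CPM, *Rhox6* at 48.8 and 44.7 CPM and *Rhox9* at 29.8 and 29.6 CPM, against 0 and 0.0565 CPM of *Rhox9* in *Pou5f1*-positive and 0.3697 and 0.316 CPM in visceral endoderm cells. *Trap1a* (648 and 625 CPM), *Tex19.1* (246 and 219.8 CPM), *Dppa4* (94.9 and 74.8 CPM), the surface gene *Plet1* (49.2 and 49.99 CPM) and *Dazl* (4.34 and 2.51 CPM) were the others. *Utf1*, *Cdh3* and *Epcam* did not stand apart: *Utf1* was at 497 and 505 CPM in ExE and 478 and 364 CPM in *Pou5f1*-positive cells.

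ExE cells held BMP and WNT ligand transcripts and next to none of FGF ligands or *Nodal*. *Bmp4* was at 138 and 126 CPM in ExE against 4.07 and 3.33 CPM in *Pou5f1*-positive cells, *Bmp8b* at 45.97 and 45.5 CPM and *Wnt6* at 86.8 and 81.1 CPM against 0.3302 and 0.621 CPM. *Pcsk6* was at 52.7 and 47.4 CPM in ExE and 4.84 and 3.84 CPM in *Pou5f1*-positive cells. Of 5 ligand and convertase genes with enough UMIs, 4 were above both other populations, beside 9.32% of all genes. The fifth, *Furin*, was at 8.85 and 11.6 CPM in ExE and higher in visceral endoderm (46.2 and 52.7 CPM). *Nodal* had 5 and 8 UMIs over all ExE cells against 18.1 and 32.7 CPM in *Pou5f1*-positive cells. *Fgf4* had none, *Fgf5* had 2 and 1 UMIs and *Fgf8* 3 and 7, while *Pou5f1*-positive cells held 139 and 119.7 CPM of *Fgf5* and 129 and 281 CPM of *Fgf8*.

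Among 12 receptors and genes induced by FGF and ERK, 2 lay at least 1.5 times below both populations in both libraries. The share over all genes was 4.43%. Above both populations stood 1 of the 12, near the 9.32% of all genes. This was *Fgfr2*, the receptor through which trophoblast stem cells read FGF4, at 191 and 179 CPM in ExE, 66.4 and 55.2 CPM in *Pou5f1*-positive and 43.4 and 36.9 CPM in visceral endoderm cells. *Fgfr1* was at 42.6 and 42.4 CPM and the activin receptor gene *Acvr2b* at 45.9 and 41.9 CPM. *Tdgf1*, the NODAL co-receptor Cripto, had 6 and 4 UMIs against 135 and 169 CPM in *Pou5f1*-positive cells. The ERK response genes did not stand above the other populations, with *Dusp6* at 42.2 and 37.1 CPM, *Spry2* at 15.7 and 17.1, *Spry4* at 15.3 and 14.4, *Etv4* at 27.97 and 25.1 and *Etv5* at 26.5 and 23.8 CPM.

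Early ectoplacental genes were present and later ones were not. Of 6 ectoplacental genes with enough UMIs, 5 were above both other populations, beside 9.32% of all genes. *Ascl2* (ENSMUSG00000009248, chr7:142966829-142969264, minus strand), the imprinted basic helix-loop-helix factor of the ectoplacental cone, was at 41.9 (38.8 to 45.1) CPM in control and 42.4 (38.7 to 46.3) CPM in *Yap1* cKO ExE cells. It was at 1.43 and 1.86 CPM in *Pou5f1*-positive and 0.185 and 0.253 CPM in visceral endoderm cells. *Hand1*, which drives giant cell formation, was at 67.8 and 77.6 CPM. It was not confined to ExE when all cells were counted, including those in neither comparison population. All other cells past the filters held 2867 and 2601 *Hand1* UMIs, against 1141 and 897 in ExE cells. The connexin gene *Gjb5* was at 71.9 and 71.8 CPM. *Ets2* and *Bhlhe40* (8.43 and 12.9 CPM) were the other 2. *Flt1* was at 4.75 and 5.28 CPM and lay below the *Pou5f1*-positive cells. *Plac1* had 16 and 55 UMIs, of which 46 of the 55 *Yap1* cKO UMIs were in 1 cell, and its main site in these libraries was the visceral endoderm population (25.3 and 25.03 CPM).

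The spongiotrophoblast genes *Tpbpa* and *Tpbpb* and the giant cell genes *Prl2c2*, *Prl3b1*, *Ctsq* and *Cts7* had no UMI in any barcode of either library. *Pcdh12*, of glycogen trophoblast, had 7 and 3 UMIs in ExE cells. *Prl3d1*, the placental lactogen of primary giant cells, had 7 and 0 UMIs in ExE cells, in 2 control cells. *Mmp9* was at 2.79 and 3.55 CPM and *Adm* at 1.43 and 2.16 CPM. Of chorion and labyrinth genes, *Gcm1*, which marks the chorion cells that will branch, had 11 and 5 UMIs, the syncytin genes *Syna* and *Synb* 1 and 0 UMIs each, and *Dlx3* 4 and 2. *Cebpb* (74.4 and 75.1 CPM), *Tfeb* (26.8 and 24.99 CPM) and *Ovol2* (13.2 and 10.1 CPM) were the 3 of 9 with enough UMIs. *Cebpb* alone of these was above both other populations.

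Of 12 imprinted genes that govern trophoblast growth, 4 were above both populations, beside 9.32% of all genes. Summed over the list, the level was 2632 and 2378 CPM in ExE and higher, at 3049 and 3237 CPM, in visceral endoderm cells. The 4 were the growth-restraining *Phlda2* (621 and 658 CPM) and *Cdkn1c* (102 and 117 CPM), *Mest* (99.4 and 61.9 CPM) and the Polycomb gene *Sfmbt2* (399 and 339 CPM). *H19* (519.5 and 447 CPM), *Igf2* (183 and 157), *Peg10* (216 and 164) and *Airn* (57.02 and 54.5) were far above *Pou5f1*-positive cells but not above visceral endoderm. *Igf2*, for example, was at 2.09 and 1.86 CPM in *Pou5f1*-positive and 173 and 195 CPM in visceral endoderm cells. The DNA methylation genes split. *Dnmt3l*, the cofactor without catalytic activity, was at 55.3 and 56.9 CPM in ExE and 0.881 and 1.92 CPM in *Pou5f1*-positive cells, whereas the methyltransferase gene *Dnmt3a* was at 6.77 and 6.92 against 127 and 112 CPM and *Dnmt3b* at 385 and 315 against 1272 and 1043 CPM. *Dnmt3a*, *Qser1* and *Tet3* were the 3 of 9 that lay at least 1.5 times below both other populations in both libraries, beside 4.43% of all genes.

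Of the Hippo pathway and YAP target genes, 6 of 17 were above both populations, beside 9.32% of all genes. These were *Tead1* (178 and 159 CPM), *Tead3*, *Tead4*, *Lats2*, *Amotl1* and the YAP target *Ccn1*. *Ccn1* was at 51.3 and 49.4 CPM against 4.73 and 1.52 CPM in *Pou5f1*-positive cells. A further 2 of the 17 lay at least 1.5 times below both populations, beside 4.43% of all genes. *Amot* was low in ExE (6.18 and 4.84 CPM) and high in visceral endoderm (677 and 582 CPM). None of 11 cell cycle genes stood apart.

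Markers of other cell types were mostly low in ExE. Of 40 that the gate did not use, 34 were under 20 CPM in both libraries, and 22 of these under 1 CPM. The epiblast gene *Otx2* had 3 and 1 UMIs in ExE against 152 and 119.9 CPM in *Pou5f1*-positive cells, and the streak gene *Mesp1* had 5 and 9 UMIs. The other 6 were *Pou3f1* (OCT6), *Lin28a*, *T*, *Apoe*, and *Hand1* and *Dnmt3b*, whose values are given above. *Pou3f1* was higher in ExE (489 and 426 CPM) than in *Pou5f1*-positive cells (312 and 228 CPM), *Lin28a* was lower (93.8 and 75.9 against 171 and 125 CPM), and *T* was at 20.02 and 13.9 CPM. Of the blood and endothelium genes, *Gata1* (6.77 and 7.697 CPM) and the VEGF receptor gene *Kdr* (5.29 and 5.102 CPM) were low but above both other populations. In *Pou5f1*-positive cells *Gata1* was at 0.1101 and 0.395 CPM and *Kdr* at 0.771 and 2.597 CPM. The 8 visceral endoderm markers summed to 435 and 383 CPM in ExE, most of it *Apoe* (419 and 361 CPM), against 23953 and 20680 CPM in visceral endoderm cells. *Cubn*, a defining gene of that tissue, had 2 and 5 UMIs and *Apom* 3 and 4. The globin genes *Hbb-y*, *Hbb-bh1* and *Hba-x* and the immune genes *Ptprc*, *Tyrobp* and *Lyz2* had none, and the adult globin gene *Hbb-bs* had 41 and 6 UMIs. The markers of the label that the gate did not use, *Cdx2*, *Tfap2c* and *Rhox9*, were all above both other populations.

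Ranked by the lowest of their ratios to the other 2 populations in the 2 libraries, the leading ExE genes were *Gm9*, *Dppa4*, *Nppb*, *Wnt6*, *Duoxa2*, *Sox21*, *AU018091*, *B830017H08Rik*, *Ahnak*, *Rhox4e*, *Htra1* and *3830417A13Rik*. A ratio to a population without a UMI of the gene could not be formed and was left out, which was so for 8 of the 12, and their order is therefore loose. *Gm9*, of the X chromosome, was at 50.5 and 52.5 CPM in ExE and had 1 UMI or none in each other population. *Sox21*, a SOX factor, was at 45.4 and 40.6 CPM against 0.1101 and 0.282 CPM in *Pou5f1*-positive cells, and *Duoxa2*, the maturation factor of a dual oxidase, at 51.6 and 57.5 against 0 and 0.452 CPM. The serine protease gene *Htra1* was the most abundant of the 12 (226 and 199 CPM). *Nppb*, the natriuretic peptide, was at 5.94 and 8.82 CPM, and 1 UMI in *Pou5f1*-positive cells of the *Yap1* cKO library gave it its single ratio.

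**Figure D1:**
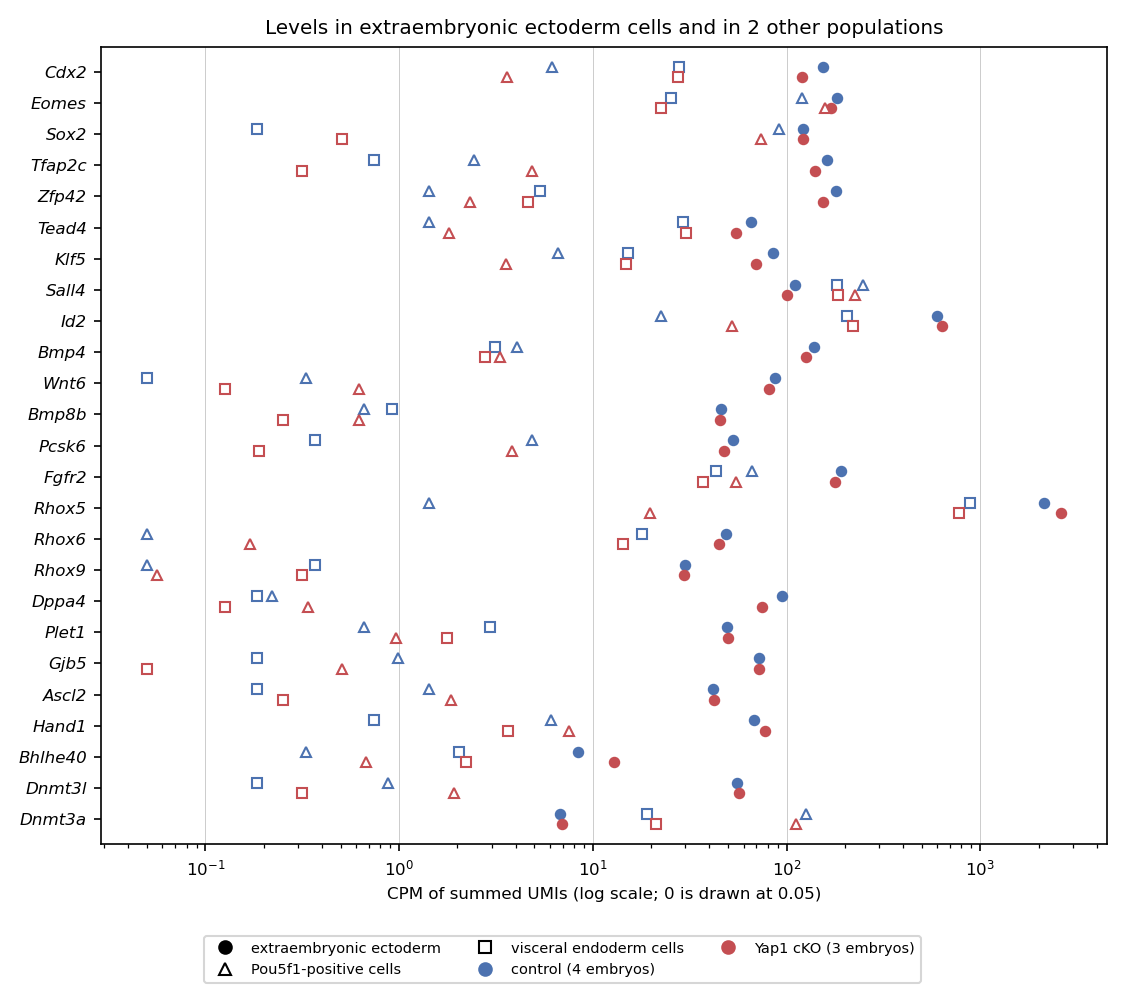
Levels of 25 genes, as CPM of summed UMIs on a log axis, in extraembryonic ectoderm cells (filled circles), *Pou5f1*-positive cells (open triangles) and visceral endoderm cells (open squares) of the control (blue) and *Yap1* cKO (red) library. *Cdx2*, *Tfap2c*, *Bmp4*, *Gjb5* and *Ascl2* lie to the right of both other populations in both libraries, while *Eomes* and *Sox2* lie close to the *Pou5f1*-positive cells and *Dnmt3a* lies to their left.

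The ExE cells were not uniform. The ratio of variance to mean over thinned cells, which is 1 for pure counting noise, had a median of 1.16 in both libraries over 6863 genes, and 258 genes had a ratio of at least 2 in both. At an equal relative spread this ratio is larger for abundant genes, so a ranking by it favours them. Mean thinned UMIs a cell were 25.3 and 25.5 for *Phlda2* but 1.63 and 1.47 for *Ascl2*. The 12 genes with the highest ratios were *Malat1*, *Rps4x*, *Actb*, *Rps21*, *Phlda2*, *Hspa8*, *Id2*, *Actg1*, *Hist1h1b*, *Ascl2*, *Klhl13* and *Ube2c*. Among these, *Hist1h1b* and *Ube2c* are known as cell cycle genes, and *Rps4x*, an X-linked gene, differed between Y-bearing (3096 and 3139 CPM) and Xist-bearing cells (5324 and 5863 CPM).

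Of the 12, 3 were trophoblast genes, namely *Phlda2*, *Id2* and *Ascl2*. *Phlda2*, with a variance-to-mean ratio of 13.5 and 12.7, had a lowest, median and highest cell of 113, 494 and 3313 CPM in the control and 70.5, 570.4 and 3597 CPM in the *Yap1* cKO library. *Id2*, an inhibitor of basic helix-loop-helix factors, had a ratio of 8.38 and 8.16, with a lowest, median and highest cell of 17.8, 547 and 2109 CPM in the control and 20.1, 659 and 1603 CPM in the *Yap1* cKO library. Most cells thus held both genes, at levels that spread widely.

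*Ascl2*, at a ratio of 12.4 and 6.996, was far sparser. It had no UMI in 40.7% and 23.4% of cells, a median of 11.1 and 21.6 CPM, and a highest cell of 880.3 and 452 CPM. The 10% of cells with the most of it held 68.9% and 52.2% of its UMIs. Outside the ExE cells it had 67 and 138 UMIs over all other cells, against 705 and 490 within. *Bmp4* had ratios of 2.61 and 3.27 and *Pou3f1* of 4.096 and 3.92, below those of *Ascl2*, while the abundant *Rhox5* had ratios of 6.51 and 14.5 and in the *Yap1* cKO library varied more than *Ascl2* by this measure.

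To ask whether stem and ectoplacental genes varied against each other, *Cdx2*, *Eomes*, *Sox2*, *Zfp42* and *Bmp4* were added to a stem sum, and *Ascl2*, *Plac1*, *Hand1*, *Flt1*, *Gjb5*, *Tpbpa* and *Tpbpb* to an ectoplacental sum, both over cells thinned to 41000 UMIs. The stem sum ran from 3 to 65 UMIs (median 33) in control and from 0 to 58 (median 28) in *Yap1* cKO cells, and the ectoplacental sum from 0 to 55 (median 6) and from 1 to 57 (median 6). Their Spearman correlation over cells was -0.223 (168 control cells) and -0.396 (89 *Yap1* cKO cells), and -0.173 and -0.287 without *Ascl2*. In the control it was weak. The cells share a library and a fixed depth, so these are descriptions without a p. The stem sum did not go with a sum of cell cycle genes (-0.00953 and -0.0146) and little with the UMIs of the cell before thinning (-0.0316 and -0.165).

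The extreme of this relation was a handful of cells. With 10 or more *Ascl2* UMIs of 41000 there were 6 control and 3 *Yap1* cKO cells, and they held 46.0% and 33.6% of the *Ascl2* UMIs of the thinned cells. Their stem sums ran from 3 to 18 (median 9.5) and from 0 to 21 (median 4), against medians of 33.5 and 28.5 in the other cells. Their *Eomes* had a median of 1 and 2 UMIs against 7 and 6, and their *Cdx2* of 4 and 2 against 6 and 5. *Hand1* was at a median of 8 against 2 UMIs in the control and at 3 in both sets of *Yap1* cKO cells. Without these cells the correlation of the sums was -0.135 and -0.338.

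**Figure D2:**
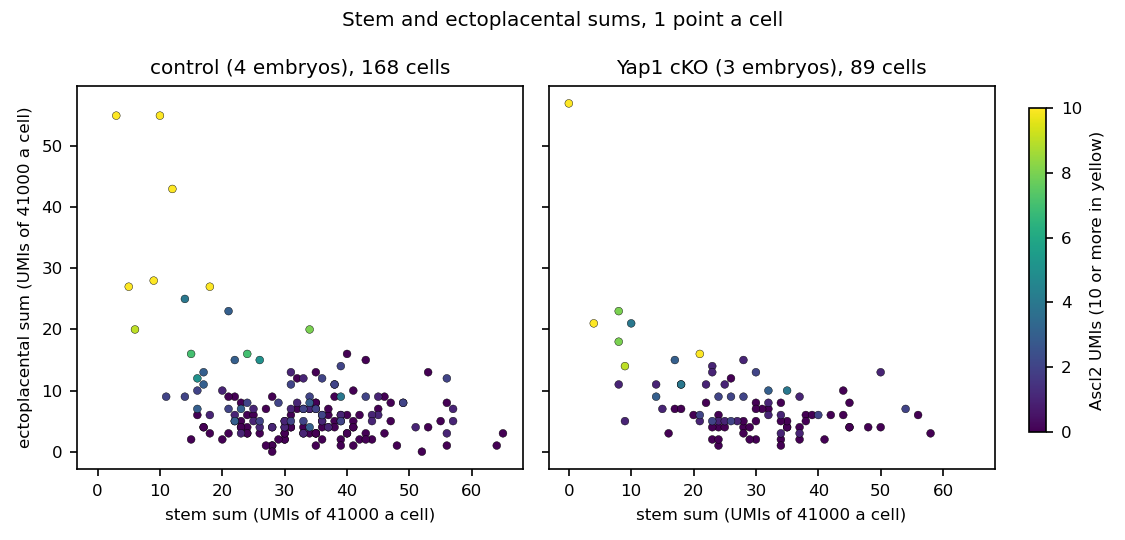
Stem sum (x axis) and ectoplacental sum (y axis) of each extraembryonic ectoderm cell, in UMIs of 41000 a cell, for 168 control and 89 *Yap1* cKO cells, coloured by *Ascl2* UMIs (10 or more in yellow). The cells in yellow lie at the left of both panels, with stem sums up to 18 and 21, and most of them at the top.

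Cells of each library were then parted into 3 equal sets, or tertiles, by the stem sum, and genes outside the stem sum were compared between the highest and the lowest tertile (56 and 56 control cells, 29 and 29 *Yap1* cKO cells). The lowest tertile ranged from 3 to 28 and from 0 to 24 UMIs, the highest from 37 to 65 and from 34 to 58. Values are CPM of all UMIs of these cells. Of 6758 genes with at least 100 UMIs in the tertiles of each library, 128 had a ratio of at least 1.5 in both libraries (1.89%) and 39 a ratio of at most 1/1.5 (0.577%). Median UMIs per cell before thinning in the lowest and highest tertile were 86505 and 86413 in the control library. They were 135678 and 98766 in the *Yap1* cKO library, and the part of this difference in the ratios was not tested.

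Of the ectoplacental genes with at least 100 UMIs in the tertiles of each library, *Ascl2* had the lowest ratio. It went from 96.5 CPM in the lowest to 10.9 CPM in the highest tertile of control cells, a ratio of 0.113 (0.0848 to 0.149), and from 86.2 to 15.3 CPM in *Yap1* cKO cells, a ratio of 0.177 (0.1303 to 0.236). *Gjb5* had ratios of 0.625 and 0.503 and *Hand1* of 0.699 and 0.5996. *Ets2* did not fall, with ratios of 1.09 (0.864 to 1.37) and 1.202 (0.8996 to 1.61). *Plac1*, with too few UMIs to be counted, had 13 UMIs in the lowest and 0 in the highest tertile of control cells. In *Yap1* cKO cells it had 52 and 0, of which 46 were in 1 cell. The whole ectoplacental sum went from 289.5 to 142 CPM, a ratio of 0.489 (0.448 to 0.534), and from 300.2 to 132 CPM, a ratio of 0.4398 (0.394 to 0.4898). Of 4 ectoplacental genes with enough UMIs, 2 (*Ascl2* and *Gjb5*) passed 1/1.5 in both libraries and the median log2 ratio was -0.60 and -0.87, beside 0.01 and 0.02 for all genes. Cells were also ranked by how many of the 5 stem genes had a UMI. Nearly all had a UMI of each of *Cdx2*, *Eomes* and *Zfp42*, so many cells tied and were parted by their order in the data. This loose ranking brought the *Ascl2* ratio to 0.249 and 0.284, and parting the cells at the median brought it to 0.195 and 0.251. Without the 6 and 3 cells of the most *Ascl2* UMIs it was 0.245 and 0.248, and the ratio of the sum was 0.720 and 0.524, so that in the control the sum then lay short of 1/1.5.

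*Bhlhe40* and *Flt1*, with fewer UMIs, went the other way. *Bhlhe40* had ratios of 2.44 (1.55 to 3.92) and 2.51 (1.63 to 3.94), and *Flt1* of 2.39 (1.26 to 4.74) and 2.57 (1.22 to 5.79). The list named after the ectoplacental cone therefore did not move as 1 block.

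Genes induced by FGF and ERK signalling were higher where the stem sum was higher. Of 11 receptor and ERK genes with enough UMIs, 5 had a ratio of at least 1.5 in both libraries, and all 5 were ERK response genes and none a receptor. *Spry4*, a Sprouty inhibitor, had ratios of 3.65 (2.51 to 5.42) and 4.58 (2.84 to 7.67). *Dusp6*, the ERK phosphatase, went from 21.5 to 63.3 CPM in control and from 13.2 to 55.97 CPM in *Yap1* cKO cells, ratios of 2.94 (2.38 to 3.65) and 4.23 (3.11 to 5.84). *Spry2* had ratios of 2.56 and 2.702, and the ETS factor genes *Etv4* and *Etv5* of 1.83 and 2.86 and of 1.76 and 2.26. *Fgfr2*, the receptor, was nearly level at 1.09 (0.998 to 1.18) and 1.26 (1.13 to 1.402). The median log2 ratio of the 11 was 0.72 and 0.62, beside 0.01 and 0.02 for all genes.

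Of the 8 stem factors that were not in the ranking sum and had enough UMIs, *Klf5* (1.64 and 2.22) and *Tead4* (1.75 and 1.73) passed 1.5 in both libraries. In the other direction 0 of 8 passed. The median log2 ratio of the 8 was -0.05 and 0.18, beside 0.01 and 0.02 for all genes, so as a list they did not follow the stem sum closely. *Satb1* was at 0.676 (0.589 to 0.775) and 0.878 (0.738 to 1.04). *Tfap2c* had ratios of 0.825 (0.751 to 0.907) and 1.07 (0.943 to 1.21), and *Id2* lay lower in the highest tertile (0.616 and 0.728). *Plet1* (1.996 and 1.79), *Pcsk6* (1.63 and 1.697) and *T* (2.35 and 3.15) were higher in the highest tertile, and *Pou3f1* as well (1.61 and 1.77). Of the imprinted genes 1 of 12, *Mest* (1.71 and 1.62), passed 1.5, and *Phlda2* was lower (0.743 and 0.552). None of 11 cell cycle genes and none of 6 DNA methylation genes passed in either direction, with *Top2a* at 1.11 and 1.04.

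Genes outside the lists were ranked, by a rule added after the data were seen, by the weaker of their Spearman correlations with the stem sum over the cells of each library. Over 6858 genes the central 95% lay between -0.195 and 0.224 in control and between -0.267 and 0.306 in *Yap1* cKO cells. At the positive end stood *Cyp26a1* (0.562 and 0.636), the enzyme that degrades retinoic acid, followed by *Pou3f1*, *Paip1*, *Smad7*, *Dusp6*, *Scmh1*, *Duoxa2*, *Pbx3*, *Socs2* and *Bcr*. At the negative end stood *Cited1* (-0.476 and -0.477), a transcriptional coregulator of trophoblast, with *Gadd45b*, *Ckb*, *Wfdc2*, *Ascl2*, *Krt18*, *Sdc4*, *Id2*, *Jund* and *Txnl4a*. The ends were chosen for these correlations, so the values that follow are a description.

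*Cyp26a1* was at 78.5 CPM in the lowest and 215 CPM in the highest tertile of control cells, and at 40.7 and 216 CPM in *Yap1* cKO cells, ratios of 2.74 (2.46 to 3.07) and 5.29 (4.46 to 6.31). *Cited1* was at 167 and 59.7 CPM in control and at 189 and 66.4 CPM in *Yap1* cKO cells. *Wfdc2* had ratios of 0.413 and 0.398, *Gadd45b* of 0.413 and 0.426 and the keratin gene *Krt18* of 0.605 and 0.557. *Scmh1*, a Polycomb gene, had ratios of 2.63 and 3.14 and *Smad7*, the inhibitor of BMP and TGF-beta signalling, of 1.82 and 2.13.

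The promoter of *Cyp26a1* is shown because the gene led the stem axis in both libraries and is a known target of retinoic acid receptors. In the RefSeq window (GRCm38.p6, chr19:37697558-37697857, plus strand), capitals mark both matches to the receptor half-site letters AGTTCA or TGAACT, searched on both strands.
Cyp26a1: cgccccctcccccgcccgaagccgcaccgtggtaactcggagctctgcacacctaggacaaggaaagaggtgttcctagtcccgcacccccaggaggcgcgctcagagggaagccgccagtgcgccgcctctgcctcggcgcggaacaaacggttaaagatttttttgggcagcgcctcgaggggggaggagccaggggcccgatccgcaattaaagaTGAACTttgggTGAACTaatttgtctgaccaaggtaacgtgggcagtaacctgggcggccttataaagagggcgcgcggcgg
The matches start 32 and 21 bases before the start site and are 5 bases apart. Half-site letters stood in 4597 of 32851 windows (14%), and a repeat of them with 5 bases between in 8 windows (0.0244%). They stood in 0 of 10 stem factor genes and in 1 of 8 ectoplacental genes with a window. The match is a description of the sequence and shows no binding.

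For 8 of these genes the tertiles were also formed within each sex call. Parting Y-bearing and Xist-bearing cells of each library into tertiles of their own gave *Dusp6* ratios of 2.55, 3.905, 7.76, 7.08 (control Y-bearing, control Xist-bearing, *Yap1* cKO Y-bearing and *Yap1* cKO Xist-bearing cells in turn). In the same order *Cyp26a1* had ratios of 3.22, 3.85, 30.5, 6.89, *Ascl2* of 0.126, 0.0863, 0.126, 0.1297 and *Cited1* of 0.327, 0.426, 0.251, 0.408. With *Spry2*, *Spry4*, *Etv4* and *Etv5*, all 32 ratios were on the same side of 1 as in the whole libraries. These 8 genes had already shown ratios off 1 there, and the same cells were ranked by the same sum. The shared direction is therefore a description and no independent check. The tertiles of *Yap1* cKO Y-bearing cells held only 6 cells each, with 3 UMIs of *Dusp6* and 3 of *Cyp26a1* in the lowest. *Spry2* and *Spry4* in control Xist-bearing cells had intervals that include 1 (0.910 to 3.99 and 0.971 to 4.68).

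**Figure D3:**
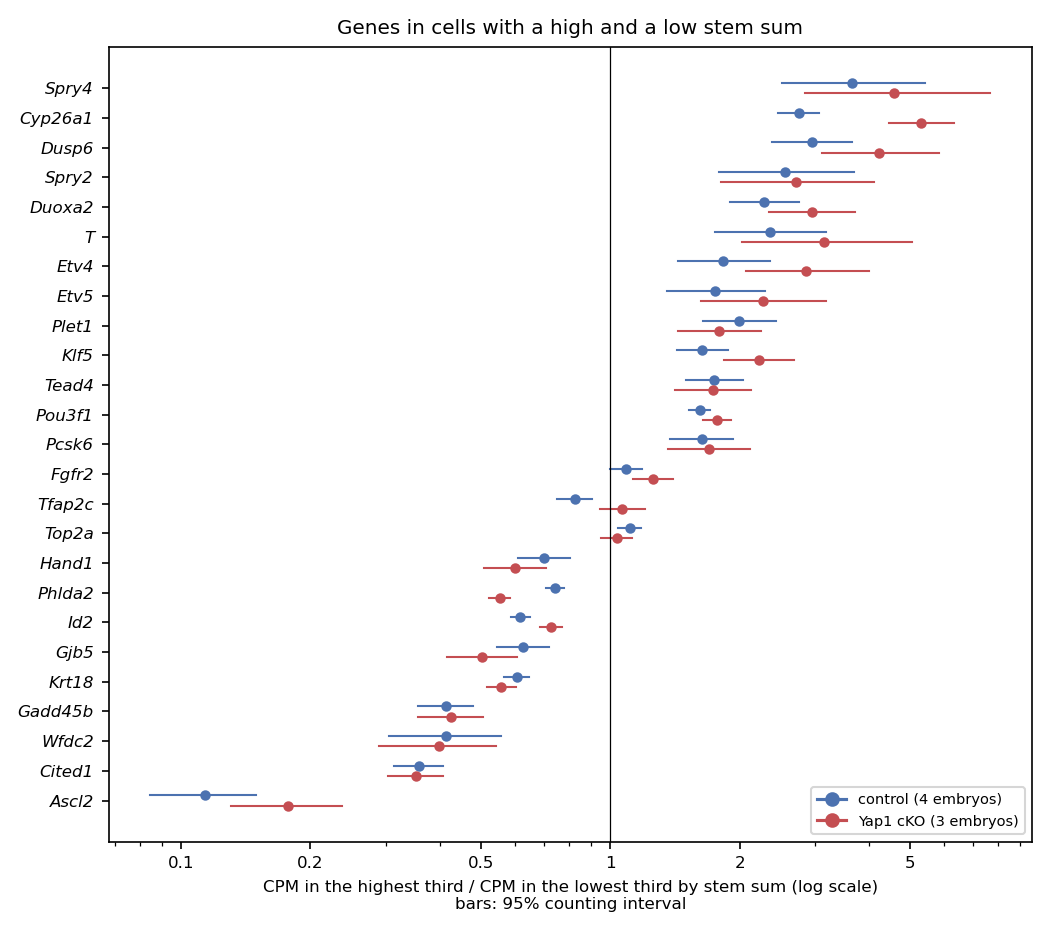
Ratio of CPM in the highest tertile to CPM in the lowest tertile of extraembryonic ectoderm cells by stem sum, on a log axis, for 25 genes in the control (blue) and *Yap1* cKO (red) library, with 95% counting intervals as bars. The ERK response genes and *Cyp26a1* lie between 1.76 and 5.29, *Fgfr2*, *Tfap2c* and *Top2a* lie near 1, and *Ascl2* lies at 0.113 and 0.177.

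Between the libraries most ExE genes were within 1.5 times of each other. *Yap1* itself (ENSMUSG00000053110, chr9:7931999-8004596, minus strand) was at 24.7 (22.4 to 27.2) CPM in control and 19.11 (16.7 to 21.8) CPM in *Yap1* cKO ExE cells, a ratio of 0.774 (0.654 to 0.913). Within Y-bearing cells the ratio was 0.621 (0.434 to 0.867) and within Xist-bearing cells 0.957 (0.742 to 1.24). In *Pou5f1*-positive cells, where Sox2-Cre acts, *Yap1* was at 28.2 and 1.299 CPM, and in visceral endoderm cells at 32.7 and 26.7 CPM. No value here shows how many intact *Yap1* alleles the ExE of either pool held. The *Yap1* cKO library had 19 Y-bearing ExE cells. The files count all UMIs of the gene, whether or not from an allele that lost its floxed part.

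Of 9697 genes, 67 had a *Yap1* cKO to control ratio of at least 1.5 (0.691%) and 123 a ratio of at most 1/1.5 (1.27%), and the median log2 ratio was -0.06. Scaled to a median gene ratio of 1, these were 85 and 84 genes, so the larger count on the lower side depended on the scaling. Of 8238 genes with enough UMIs within Y-bearing cells, 81 were past 1.5 and 559 past 1/1.5, and of 8026 within Xist-bearing cells 124 and 107. Of the 67 and 123 genes, 14 and 60 had enough UMIs in Y-bearing cells, and 6 and 37 of these were past 1.5 in the same direction. In Xist-bearing cells 24 and 39 had enough UMIs, and 17 and 20 of these were past 1.5 in the same direction.

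None of 12 stem factors passed 1.5 in either direction. Their ratios ran from 0.779 (*Cdx2*) to 1.11 (*Gata3*), with a median log2 ratio of -0.16. The intervals of 8 lay below 1 and that of *Id2* above 1. *Cdx2* had the lowest ratio, 0.779 (0.729 to 0.832), and was alike among Y-bearing (0.776) and Xist-bearing cells (0.755). *Tfap2c* was at 0.871 (0.819 to 0.926), *Klf5* at 0.817 (0.748 to 0.891), *Zfp42* at 0.859 (0.8101 to 0.912) and *Eomes* at 0.931 (0.879 to 0.985). *Sox2* had a ratio of 1.001 (0.935 to 1.07), made of 0.766 among Y-bearing and 1.15 among Xist-bearing cells.

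None of the 5 ligand and convertase genes passed 1.5. *Bmp4* had a ratio of 0.912 (0.853 to 0.974), with 0.689 among Y-bearing and 0.971 among Xist-bearing cells. *Bmp8b* was at 0.9895 (0.884 to 1.11), *Wnt6* at 0.934 (0.8597 to 1.01), *Pcsk6* at 0.899 (0.806 to 1.001) and *Furin* at 1.31 (1.03 to 1.66). The 12 receptor and ERK genes ran from 0.755 (*Acvr2a*) to 1.09 (*Spry2*), with 0 past 1.5 in either direction and a median log2 ratio of -0.10. *Fgfr2* was at 0.935 (0.884 to 0.989) and *Dusp6* at 0.879 (0.778 to 0.992). *Dusp6* was at 0.516 among Y-bearing and 1.05 among Xist-bearing cells. Of the 11 surface and germline-type genes, *Dazl* alone passed 1.5, at 0.578 (0.363 to 0.901) with 73 and 29 UMIs, and it was at 1.34 in Xist-bearing cells. *Rhox5* was at 1.22 (1.204 to 1.24), with 0.892 among Y-bearing and 1.38 among Xist-bearing cells, and *Rhox9* at 0.992 (0.862 to 1.14), with 0.411 and 1.28.

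Summed over all ExE cells, most ectoplacental genes were at similar levels in both libraries. *Ascl2* had a ratio of 1.01 (0.9 to 1.14), *Gjb5* of 0.998 (0.913 to 1.09) and *Hand1* of 1.14 (1.05 to 1.25). Of 6 genes 1 passed 1.5, *Bhlhe40* at 1.53 (1.21 to 1.94), and none 1/1.5, with a median log2 ratio of 0.08. *Bhlhe40* was at 0.328 among Y-bearing and 5.45 among Xist-bearing cells and thus had no single direction. *Hand1* was at 66.4 and 81.8 CPM in Y-bearing and 58.5 and 80.0015 CPM in Xist-bearing cells of the control and *Yap1* cKO library. In the same order *Gjb5* was at 72.8, 79.8, 64.7 and 72.2 CPM, and *Ascl2* at 41.5, 40.1, 34.8 and 45.5 CPM. Within both calls *Hand1* was thus higher in *Yap1* cKO cells. *Gjb5* was higher there by less, and its ratio over all cells was 0.998 (0.913 to 1.09). *Ascl2* was higher only within Xist-bearing cells, and 1 cell held as much as 38.0% of its UMIs within a call. *Ascl2* had a UMI in more *Yap1* cKO cells before thinning (72 of 94 against 105 of 177), but at a fixed depth in 44.05% (36.4 to 51.9) of the control cells and 47.2% (36.5 to 58.1) of those of the *Yap1* cKO.

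Of the imprinted genes, *Mest* passed 1/1.5 at 0.623 (0.5701 to 0.681), with 0.767 among Y-bearing and 0.518 among Xist-bearing cells. *Mest* is expressed from the paternal allele, and it was also lower in the visceral endoderm cells of the *Yap1* cKO library (30.7 and 8.72 CPM) and at a ratio nearer to 1 in *Pou5f1*-positive cells (40.8 and 33.3 CPM). *Kcnq1ot1* was at 0.699 (0.625 to 0.7801) and *Peg10* at 0.761 (0.719 to 0.805), while *Cdkn1c* was at 1.15 (1.07 to 1.23) and *Phlda2* at 1.06 (1.03 to 1.09). The median log2 ratio of the 12 was -0.22. The 9 DNA methylation genes (median -0.03), 17 Hippo genes (median -0.17) and 11 cell cycle genes (median -0.17) had 0 past 1.5 in either direction. *Ccn1* was at 0.962 (0.864 to 1.07) and *Ccn2* at 0.752 (0.545 to 1.03). The 3 chorion genes with enough UMIs had a median of -0.10.

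**Figure D4:**
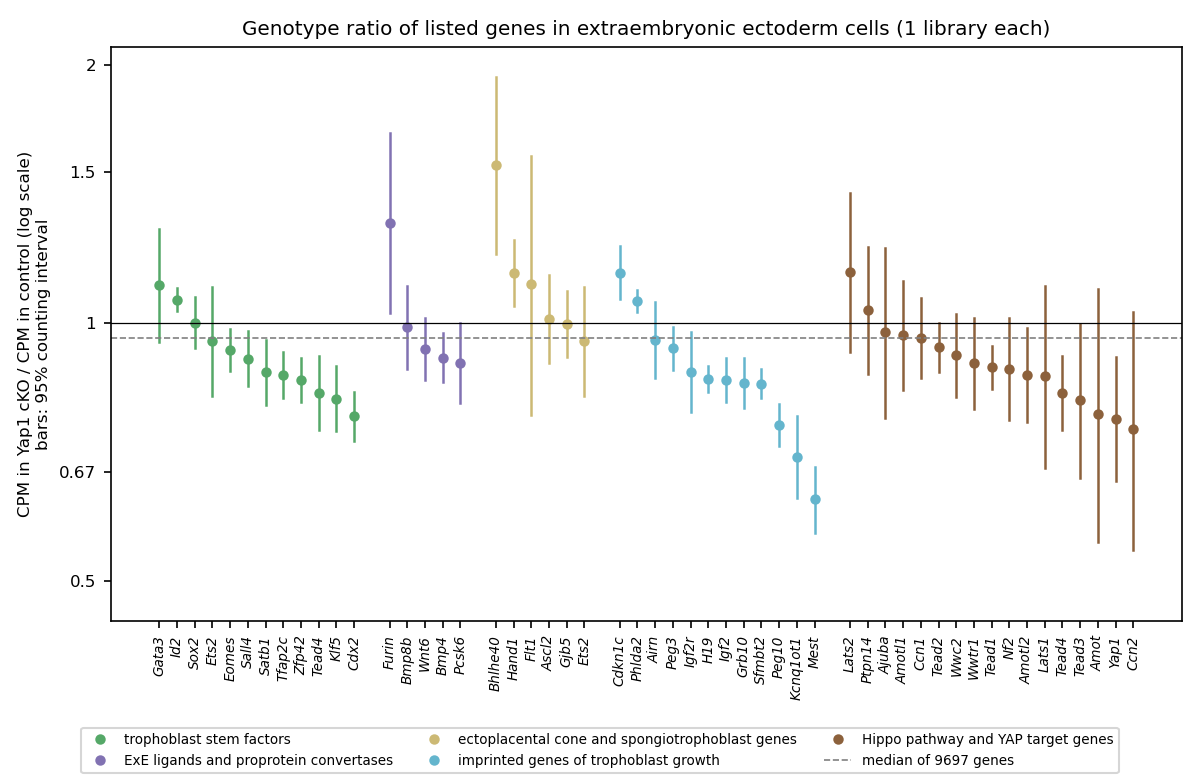
Ratio of CPM in *Yap1* cKO to CPM in control extraembryonic ectoderm cells, on a log axis, for genes of 5 lists with at least 100 UMIs, with 95% counting intervals as bars and the median of 9697 genes as a dashed line. The stem factors run from 0.779 to 1.11, *Bhlhe40* stands highest at 1.53 and *Mest* lowest at 0.623.

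Of the genes named by their ratios, the most abundant was *Gsto1* (ENSMUSG00000025068, chr19:47854970-47864790, plus strand), a glutathione transferase of the omega class and 1 of the 8 with the lowest ratios. It was at 939 (925 to 954) CPM in control and 321 (311 to 331) CPM in *Yap1* cKO ExE cells (15812 and 3711 UMIs), a ratio of 0.342 (0.3296 to 0.354). The lowest, median and highest control cell had 121, 956 and 1901 CPM, and the *Yap1* cKO cells 52.1, 278 and 780.5 CPM. None of the 94 *Yap1* cKO cells reached the control median, and 6 of 177 control cells lay below the *Yap1* cKO median. The ratio was 0.318 (0.294 to 0.344) among Y-bearing and 0.286 (0.272 to 0.2995) among Xist-bearing cells. In *Pou5f1*-positive cells *Gsto1* was at 65.2 and 82.5 CPM, a ratio of 1.27, and in visceral endoderm cells at 93.5 and 91.98 CPM, a ratio of 0.983. Whether the difference goes with the genotype or with the embryos pooled cannot be told apart.

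**Figure D5:**
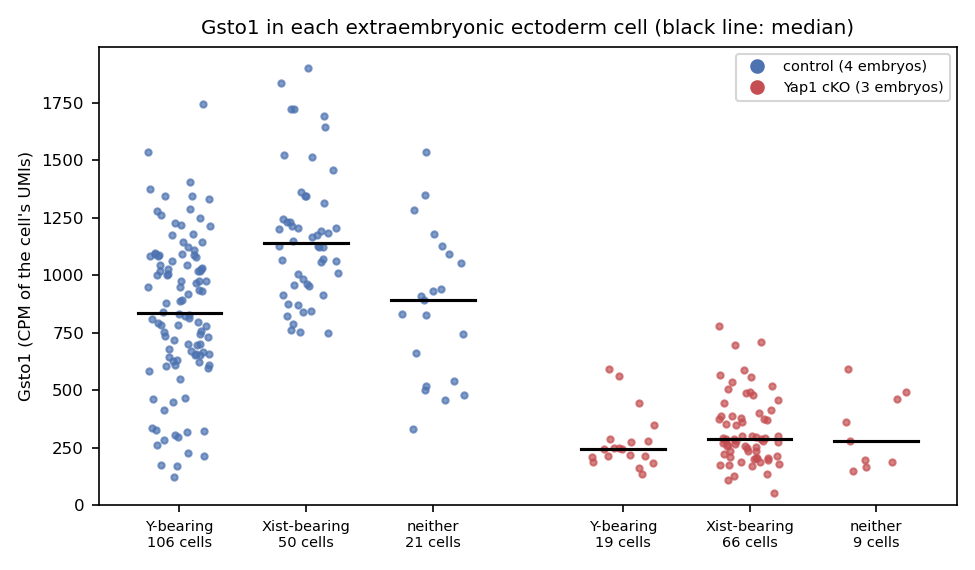
*Gsto1* in each extraembryonic ectoderm cell, as CPM of the cell's UMIs, for Y-bearing, Xist-bearing and other cells of the control (blue) and *Yap1* cKO (red) library, with the median of each set as a black line. The medians of the 3 control sets lie between 837 and 1140 CPM and those of the *Yap1* cKO sets between 242 and 285 CPM.

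The genes were named by the highest and lowest ratios with the same direction in both sex calls. The 8 highest were *Cul9* (4.02), *Gm15862* (3.41), *2410141K09Rik* (2.96), *Rhox4c* (2.597), *Cyct* (2.56), *Apoc2* (2.52), *Cdh18* (2.51) and *B230312C02Rik* (2.49). Of these *2410141K09Rik* had the most UMIs, at 11.6 and 34.4 CPM, which gave a ratio of 2.96 (2.49 to 3.53), with 3.33 among Y-bearing and 2.66 among Xist-bearing cells. It was nearly absent from *Pou5f1*-positive cells (0.1101 and 0.395 CPM). Some of the others rested on few cells within a sex call. In Y-bearing *Yap1* cKO cells 1 cell held 86.2% of 29 *Cdh18* UMIs and 1 cell 75% of 16 *Cul9* UMIs. In control Xist-bearing cells 1 cell held 68.8% of 16 *Gm15862* UMIs. The ratio of *Gm15862* was also high in *Pou5f1*-positive (3.13) and visceral endoderm cells (2.78) and so not particular to ExE, whereas *Cul9* had 0.633 and 0.437 there. *Rhox4c*, like *Rhox4e* above, has near-identical copies in its cluster, so the counts of both are uncertain. *Apoc2* is a visceral endoderm gene (7862 and 9443 CPM there), as is *Spink1*, which had a ratio of 2.46 (1.73 to 3.54) in ExE. The gate gene *Rbp4* of that tissue was at 5.405 and 9.77 CPM in ExE, and the *Yap1* cKO library held more visceral endoderm cells (188 of 864 against 72 of 791). The 8 markers of that tissue together were at 383 CPM in *Yap1* cKO and 435 CPM in control ExE cells, but this sum was mostly *Apoe*. The other 7 summed to 22.2 against 16.1 CPM, and 6 of them were higher in the *Yap1* cKO library. The part of free RNA in these values was not tested.

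The 8 lowest were *Tex13b* (0.271), *Mid1* (0.291), *Erc2* (0.321), *Cfap43* (0.336), *Gsto1*, *Ddx58* (0.379), *Rpl10-ps3* (0.389) and *Ccnd1* (0.396). *Tex13b* went with the sex calls, at 13.3 and 11.7 CPM in Y-bearing and 0.6602 and 0.514 CPM in Xist-bearing cells of the control and *Yap1* cKO library, so that within the calls its ratios were 0.885 and 0.778. *Cfap43* was at 20.1 and 6.75 CPM, which gave a ratio of 0.336 (0.259 to 0.431), with 0.351 and 0.343 within the calls. Of its 78 *Yap1* cKO UMIs, 25.6% were in 1 cell. *Cfap43* (chr19:47736857-47919287, minus strand) spans *Gsto1*, which lies on the plus strand and had a similar ratio. Whether these ratios are independent was not tested. *Ccnd1*, cyclin D1, was at 6.77 and 2.68 CPM in ExE, far below the *Pou5f1*-positive cells (170.0 and 142 CPM). *Rpl10-ps3* had similar ratios in *Pou5f1*-positive (0.387) and visceral endoderm cells (0.328), whereas *Ccnd1* had 0.835 and 1.85 there.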

How the data were processed

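Single cells of pooled E7 embryos, genotyped before pooling and dissociated enzymatically, were captured with the 10x 3' v3.1 chemistry, 1 library for each genotype. The UMI counts per gene and barcode were deposited by the authors as 1 matrix for each library, made with Cell Ranger 7.1.0 on mm10 per the submitters' processing notes. No normalization had been applied, and UMIs of intact and recombined alleles of a gene are counted together.

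Barcodes with at least 5000 genes and at most 10% mitochondrial UMIs were kept, and doublets were scored with scrublet (scanpy 1.11.5) without removal. UMIs of the extraembryonic ectoderm cells were summed per library and given as CPM with exact Poisson intervals, and ratios as CPM ratios with exact conditional binomial intervals. Shares have Clopper-Pearson intervals. A UMI stands for 1 captured molecule, but intervals at 95% cover counting error only. With 1 library each, no test was made and no p computed. Genes needed at least 100 UMIs over the extraembryonic ectoderm cells of both libraries, and a ratio of 1.5 was the mark for counts. Variation between cells was measured after thinning without replacement to 41000 UMIs, which left out 9 and 5 cells. Cells are not replicates, and correlations over them are descriptions. Sex calls, with at least 2 UMIs of *Xist* or of 4 Y-linked genes and none of the other, served to recompute each ratio. The scripts were tested on simulated counts.

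The genes named in the text are those of the fixed lists. To them were added the 8 highest and 8 lowest ratios with an interval off 1 and the same direction in both sex calls, the 12 highest variance-to-mean ratios and the 12 genes leading over both other populations. The 11 gate genes, *Xist*, *Tsix* and Y-linked genes were left out of comparisons, and 1 gene of the ectoplacental list is not reported here and was left out of its list and sum. The genes named for their correlation with the stem sum and the cells with 10 or more *Ascl2* UMIs were chosen after their values were seen. The members and lists were chosen with earlier results of these data known. Promoters are RefSeq windows of GRCm38.p6, and gene positions those of GENCODE on GRCm38. Python 3.11.15, numpy 2.4.6, scipy 1.17.1 and pandas 2.3.3 were used. Alternative gates, scalings, thinnings and sexes were run.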

Additional observations from a re-analysis of the deposited data

Results flagged for a closer look

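Of 122 listed or named genes compared within both sex calls, 6 had *Yap1* cKO to control ratios on opposite sides of 1 with both intervals off 1. The difference between the calls was not tested, and the Y-bearing *Yap1* cKO cells numbered 19. *Bhlhe40*, a basic helix-loop-helix repressor, was at 0.328 among Y-bearing and 5.45 among Xist-bearing cells, with 11.1 and 3.65 CPM in Y-bearing and 2.64 and 14.4 CPM in Xist-bearing cells of the control and *Yap1* cKO library. *Rhox9* was at 0.411 and 1.28, *Rhox5* at 0.892 and 1.38, *Sox2* at 0.766 and 1.15, and the imprinted gene *Peg3* at 0.813 and 1.12. *Ccne1*, cyclin E1, went the other way, at 1.37 and 0.819.

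Barcodes with under 5000 genes were not used. Among them, 39 of 941 control and 24 of 925 *Yap1* cKO barcodes with at most 10% mitochondrial UMIs passed the other rules for extraembryonic ectoderm, which is above the limit that a count of 0 allows. Of these, 38 and 22 had at least 2000 genes.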

How the results depend on the processing

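No paired analysis was possible because each genotype has 1 library, so the groups share fewer than 2 replicate numbers. Of 1853 values under other settings, for 134 results, 1670 stayed within the counting interval (counts within 1.5 times, Spearman within 0.1), 181 moved and 2 reversed; the cause was not tested. The reversals were *Dazl*, at 1.34 in Xist-bearing cells, and *Bhlhe40*, at 0.328 in Y-bearing cells. For named genes and other lists, 155 of 1689 values moved, 67 among Y-bearing and 65 among Xist-bearing cells. The *Yap1* ratio was 0.621 among Y-bearing and 0.957 among Xist-bearing cells. Genes past 1.5 in the higher direction numbered 124 in Xist-bearing cells, 453 with a minimum of 20 UMIs and 16 at a ratio of 2. In the lower direction they numbered 559 in Y-bearing cells, 602 with a minimum of 20 UMIs and 15 at a ratio of 2. Scaling to a median ratio of 1 gave 85 and 84. The ectoplacental list median was 0.39 in Xist-bearing cells.

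The ratio of the ectoplacental sum between tertiles of control cells was 0.609 by the number of genes with a UMI, 0.561 with cells parted at the median and 0.720 without the cells of 10 or more *Ascl2* UMIs, a setting chosen after the data were seen. In *Yap1* cKO cells these were 0.519, 0.539 and 0.524, and 0.297 among Y-bearing cells. For *Ascl2* alone the control ratio was 0.249 by the number of genes, 0.195 with cells parted at the median, 0.152 without *Bmp4* in the stem sum and 0.245 without the same cells. The *Yap1* cKO ratio was 0.126 among Y-bearing and 0.130 among Xist-bearing cells, 0.284 by the number of genes, 0.251 with cells parted at the median and 0.248 without those cells. By the number of genes the Spearman correlation of the sums in *Yap1* cKO cells was -0.168. All of these ratios stayed below 1, though ranking by the number of genes left many cells tied, parted by their order in the data. The count of 9 stem factors above both other populations was the same under 6 settings added after the data were seen. With 1 library for each genotype, pools of 4 and 3 embryos and a sex composition that differed, no value separates the genotype from the embryos. Genes under 100 UMIs over the extraembryonic ectoderm cells of both libraries were not compared.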

Other observations

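A pair of control cells high in *Prl3d1*, the placental lactogen of primary giant cells, lay outside the gate. The gene was chosen after its values were seen. Of 2143 *Prl3d1* UMIs in 10 control barcodes, 1172 and 879 were in these cells, and the *Yap1* cKO library held 1 UMI. The pair had 81 and 38 *Hand1* UMIs, 258 and 342 of *Adm*, which encodes adrenomedullin, and 74 and 44 of *Plac1*. They had 1 and 0 UMIs of the gate genes *Elf5*, *Wnt7b* and *Esrrb* together, 1 UMI each of *Ascl2* and none of *Cdx2* or *Eomes*. *Prl8a2*, a prolactin-family gene of the decidua and trophoblast, had 547 UMIs in 78 control barcodes, 426 of them in 1 barcode, and none in the *Yap1* cKO library.

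Within the *Yap1* cKO library 3 of the *Rhox* genes, *Rhox5*, *Rhox6* and *Rhox9*, were higher in Xist-bearing than in Y-bearing extraembryonic ectoderm cells. The ratio of Xist-bearing to Y-bearing CPM of *Rhox9* was 0.824 (0.662 to 1.02) and 2.57 (1.77 to 3.83) in control and *Yap1* cKO cells, that of *Rhox6* 1.05 (0.893 to 1.23) and 1.48 (1.16 to 1.91) and that of *Rhox5* 0.953 (0.9299 to 0.976) and 1.48 (1.43 to 1.52). *Rhox4c*, with few UMIs, was at 5.52 CPM in Xist-bearing and 7.29 CPM in Y-bearing *Yap1* cKO cells, and *Rhox4e* at 14 and 12.6 CPM in the same order. As said above, the counts of both are uncertain. *Eif2s3x*, which has a Y-linked partner, was at 1.39 (1.28 to 1.504) and 1.29 (1.15 to 1.45). Over X-linked genes the median log2 ratio was -0.03 in control (287 genes) and 0.08 in *Yap1* cKO cells (239 genes), beside -0.03 and -0.01 over autosomal genes. The calls split embryos of a pool, of which there were 4 and 3, so sex and embryo cannot be told apart.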
